A study of Mus musculus with 8 samples.

Results

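The genes of 4 fibroblast growth factor (FGF) receptors (Fgfr1, Fgfr2, Fgfr3 and Fgfr4), the ligand gene Fgf18 and 4 feedback inhibitors (Spry1, Spry2, Spry4 and Dusp6) were followed in growth plate cartilage of the mouse femur. They were chosen by name. A probe was taken as theirs when its systematic name was a RefSeq transcript of one of these 9 genes, which gave 16 of the 56605 probes on the array. Total RNA came from 12-day-old littermates of 2 genotypes, 4 mice labelled Cre and 4 labelled CreTW, with a separate 1-colour Agilent array for the RNA of every mouse. As background on the study, mice of both genotypes carry a Cre recombinase driven by the type II collagen promoter, so the cells it acts on are cartilage cells and their descendants, and CreTW mice carry in addition a mutant Twinkle, the helicase of mitochondrial DNA, which Cre switches on. The study's title sets poor growth through cartilage beside loss of the respiratory chain.

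FGF signalling restrains the growth plate. FGF18, secreted largely by the perichondrium around the cartilage, acts on FGFR3 of dividing chondrocytes, where FGFR3 slows division and maturation; mutations that activate it shorten the long bones. FGFR1 is known from hypertrophic chondrocytes and FGFR2 from perichondrium and bone-forming cells. An occupied receptor activates the RAS and ERK cascade. ERK activity induces the Sprouty proteins, which block the cascade upstream, and DUSP6, a phosphatase that removes the activating phosphates from ERK, so their mRNA levels are often read as a record of FGF output.

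None of the 8 genes that could be tested differed between CreTW and Cre cartilage beyond the spread of the mice. Dusp6 had the most negative difference, a log2 value of -0.32 ± 0.23 (SE, n = 4 arrays per genotype), and Fgfr2 the most positive, 0.19 ± 0.10. The genes varied among mice of either genotype: Fgfr3 and Fgfr4 were high on the arrays with high cartilage markers, and Spry1 and Dusp6 were high on those with high markers of blood vessels, relations that passed adjustment by Pearson's r and not by Spearman's rho. Each of these genes also had weaker correlations with other marker lists, none of which passed. Levels below are the log2 of a probe's processed signal minus the array's 75th percentile, differences are CreTW minus Cre, and limma gave the p-values, adjusted by Benjamini and Hochberg's method across 23105 features. The adjusted p-values of the 8 genes lay between 0.558 and 0.985, so 0 of 8 passed 0.05, against 0.346% of all features tested, and 0 of 8 had an unadjusted limma p under 0.05, against 10.7% of all features. The median difference was -0.02 over the 8 genes and -0.01 over all features. A p above the threshold does not show that the genotypes are alike, and the intervals given with each gene say which differences these arrays leave possible.

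The arrays were of similar quality, with 45.4% to 57.9% of probes well above background and no saturated spot. Cartilage markers were present: 12 of 12 chondrocyte markers were measured and 0 changed. Their summed signal, in units of the array's 75th percentile, ran from 2510 to 4280 on the Cre arrays and from 2410 to 3290 on the CreTW arrays. Other tissues were present too, with 0 markers changed in each list. Markers of perichondrium, tendon and fibroblasts summed to 1990 to 2490 on Cre and 2150 to 2630 on CreTW arrays. These sums overlapped. Their score, a mean of the listed markers' log2 values after centring each, did not overlap, at -0.57 to 0.07 on Cre and 0.13 to 0.35 on CreTW arrays. The score of hypertrophic chondrocytes did not overlap either, at 0.08 to 0.27 on Cre and -0.35 to 0.07 on CreTW arrays. The summed signal of the hypertrophic markers did overlap, at 632 to 733 on Cre and 561 to 801 on CreTW arrays. The highest of these sums was that of CreTW replicate 3. Among all single features 6.70% did not overlap. Endothelial markers summed to 59.9 to 87.2 on Cre and 59.0 to 84.5 on CreTW arrays, osteoclast markers to 422 to 1180 and 277 to 1030, and skeletal muscle markers to 36.1 to 105 and 47.8 to 679, with the markers of muscle above every Cre array on 3 of 4 CreTW arrays. In these bulk samples fewer cells of a type and less RNA per cell cannot be told apart. The labels name 4 mice per genotype and do not say which shared a litter.

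The sequences before the start sites of 4 of the genes are shown because Fgfr3 and Fgfr4 had r = 0.87 across the 8 arrays and Spry1 and Dusp6 had r = 0.89, the highest among 28 pairs, though 0 of 28 passed after adjustment. Each is the 250 bases before the RefSeq start on GRCm38.p6, plus strand, 5′ to 3′, at chr5:33721474-33721723 for Fgfr3, chr13:55152568-55152817 for Fgfr4, chr3:37639697-37639946 for Spry1 and chr10:99262981-99263230 for Dusp6. Capitals mark matches to the GC box GGGCGG bound by Sp1-type factors and to the ETS core CCGGAA, on either strand.
Fgfr3: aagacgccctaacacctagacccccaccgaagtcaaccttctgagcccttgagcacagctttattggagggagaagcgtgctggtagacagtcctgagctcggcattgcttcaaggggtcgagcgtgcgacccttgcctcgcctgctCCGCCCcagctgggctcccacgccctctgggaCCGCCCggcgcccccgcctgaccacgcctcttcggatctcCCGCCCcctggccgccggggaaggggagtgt
Fgfr4: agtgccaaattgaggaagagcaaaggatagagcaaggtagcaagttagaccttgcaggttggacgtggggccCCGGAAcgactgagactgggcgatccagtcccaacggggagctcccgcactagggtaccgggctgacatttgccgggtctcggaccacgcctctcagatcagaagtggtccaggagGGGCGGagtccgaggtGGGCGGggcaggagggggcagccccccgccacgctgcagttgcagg
Spry1: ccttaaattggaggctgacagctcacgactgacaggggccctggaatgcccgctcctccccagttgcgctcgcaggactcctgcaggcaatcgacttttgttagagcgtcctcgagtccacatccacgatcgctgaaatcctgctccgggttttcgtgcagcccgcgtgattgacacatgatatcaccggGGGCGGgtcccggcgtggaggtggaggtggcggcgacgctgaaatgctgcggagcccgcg
Dusp6: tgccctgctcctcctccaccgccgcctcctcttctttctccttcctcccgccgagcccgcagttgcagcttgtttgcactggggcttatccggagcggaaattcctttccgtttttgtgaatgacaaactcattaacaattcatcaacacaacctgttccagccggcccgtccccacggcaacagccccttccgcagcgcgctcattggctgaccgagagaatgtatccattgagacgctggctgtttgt
The GC box was found 3 times before Fgfr3, 2 times before Fgfr4, once before Spry1 and not before Dusp6. It was present in 32.7% of the 32851 windows of this length in the RefSeq table. The ETS core, the DNA element of the ETV factors that act below ERK, was found once before Fgfr4 and in 12.0% of all windows. Neither the AP-1 element TGACTCA (4.46% of all windows) nor the amino acid response element TTGCATCA, which ATF4 binds (0.791%), was in any of the 8 windows examined for these genes. No window of Fgfr1 or Spry4 was among these 8, and a gene could have several. The GC box was in 5 of the 8. These matches describe the letters of the windows only. By base composition, G and C made up 66.8% of the Fgfr3 window, 64.0% of that of Fgfr4, 62.4% of that of Spry1 and 56.4% of that of Dusp6, against a median of 52.4% over all windows.

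Fgfr3, the receptor that restrains chondrocyte division, was read by 2 probes, both well above background on all 8 arrays. Its brighter probe gave 5.56, 6.16, 5.81 and 6.67 on Cre replicates 1 to 4 and 6.06, 6.31, 5.71 and 5.94 on CreTW replicates 1 to 4. The highest and the lowest of the 8 values both came from Cre mice, so the CreTW values lay wholly inside the Cre range. On the linear scale the processed signal of this probe ran from 7480 to 16600 scanner units in Cre mice and from 8440 to 14300 in CreTW mice. The difference was -0.05 ± 0.24 (95% interval -0.59 to 0.50, adjusted p = 0.962 by limma), which leaves folds between 0.665 and 1.41 possible. The second probe gave -0.02 to 1.33 in Cre and 0.18 to 0.89 in CreTW mice, with Cre replicate 1 again lowest and Cre replicate 4 again highest, and a difference of -0.17 (95% interval -0.79 to 0.45). Without Cre replicate 4 the difference of the brighter probe was 0.16 and without CreTW replicate 3 it was 0.05, so its sign rested on single mice. Arrays lay in 2 rows of 1 slide with 2 of either genotype in each. The difference was 0.33 within row 1 and -0.42 within row 2, neither of which passed the test (adjusted p = 0.611 and 0.999 by limma).

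Fgfr1, the receptor known from hypertrophic chondrocytes, was the steadiest of the genes. Its brightest probe gave 5.41, 5.50, 5.42 and 5.50 in Cre and 5.50, 5.43, 5.45 and 5.36 in CreTW mice. The ranges overlapped almost wholly, and 0.896% of all features had a smaller residual SD than its 0.054. The difference was -0.02 ± 0.07 (95% interval -0.19 to 0.15, adjusted p = 0.945 by limma), which leaves folds between 0.877 and 1.11 possible, the tightest bound among these genes. Probes 2 and 3 differed by 0.08 and 0.02. The dimmest probe of Fgfr1 stood apart from the others: it gave -0.72, -1.20, -0.80 and -0.78 in Cre and -0.61, -0.61, -0.62 and -0.66 in CreTW mice. It was the only probe of the 16 whose genotypes did not overlap, a state met by 6.70% of all features, with a difference of 0.25 (95% interval -0.01 to 0.51, adjusted p = 0.487 by limma over 29398 probes). Cre replicate 2 lay well under the other Cre arrays. Which exons the 4 probes read was not analysed here, so splice forms of the receptor were not told apart.

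Fgfr2, whose product is known from perichondrium and bone-forming cells, gave 0.14, -0.15, -0.02 and 0.16 in Cre and 0.29, 0.05, 0.27 and 0.26 in CreTW mice by its brighter probe. Of the CreTW mice 3 lay above every Cre mouse and CreTW replicate 2 lay within the Cre range. The difference was 0.19 ± 0.10 (95% interval -0.05 to 0.42, adjusted p = 0.558 by limma), and the exact permutation p was 0.0857 (two-sided), where the smallest that 4 against 4 can give is 0.0286. It was positive within either slide row, 0.18 in row 1 and 0.20 in row 2. The dimmer probe was at 0.01 (95% interval -0.32 to 0.35). Over the 8 arrays Fgfr2 had r = 0.86 with the perichondrium, tendon and fibroblast score, a score that did not overlap between the genotypes (exact permutation p = 0.00657, adjusted over 64 relations 0.0701; rho = 0.64, adjusted exact p = 0.446). Both were higher in CreTW mice, so this r includes the genotype difference. Taken as deviations from the genotype mean, r was 0.75. It was 0.98 among the Cre mice and -0.0 among the CreTW mice. Without the 2 arrays farthest from the median score r was 0.30. The part of these tissues in the Fgfr2 difference was not tested.

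Fgfr4, a receptor better known from liver and muscle, gave -0.12, 0.32, 0.34 and 0.89 in Cre and 0.23, 0.44, -0.48 and 0.16 in CreTW mice. The genotypes overlapped, with Cre replicate 4 highest and CreTW replicate 3 lowest. The difference was -0.27 ± 0.25 (95% interval -0.84 to 0.30, adjusted p = 0.718 by limma), and its second probe was at -0.06 (95% interval -0.69 to 0.57). Within slide row 1 the difference of the first probe was 0.23 and within row 2 it was -0.78, neither past the test, and the difference between rows was not tested.

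Fgf18, the ligand, was read by 1 probe, at 0.76, -0.10, 0.21 and 0.55 in Cre and 0.34, 0.73, -0.09 and 0.54 in CreTW mice. Each genotype held a mouse near the bottom and a mouse near the top of the same range. The difference was 0.03 ± 0.23 (95% interval -0.49 to 0.55, adjusted p = 0.976 by limma), so a fold between 0.711 and 1.46 remains possible.

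**Figure D1:**
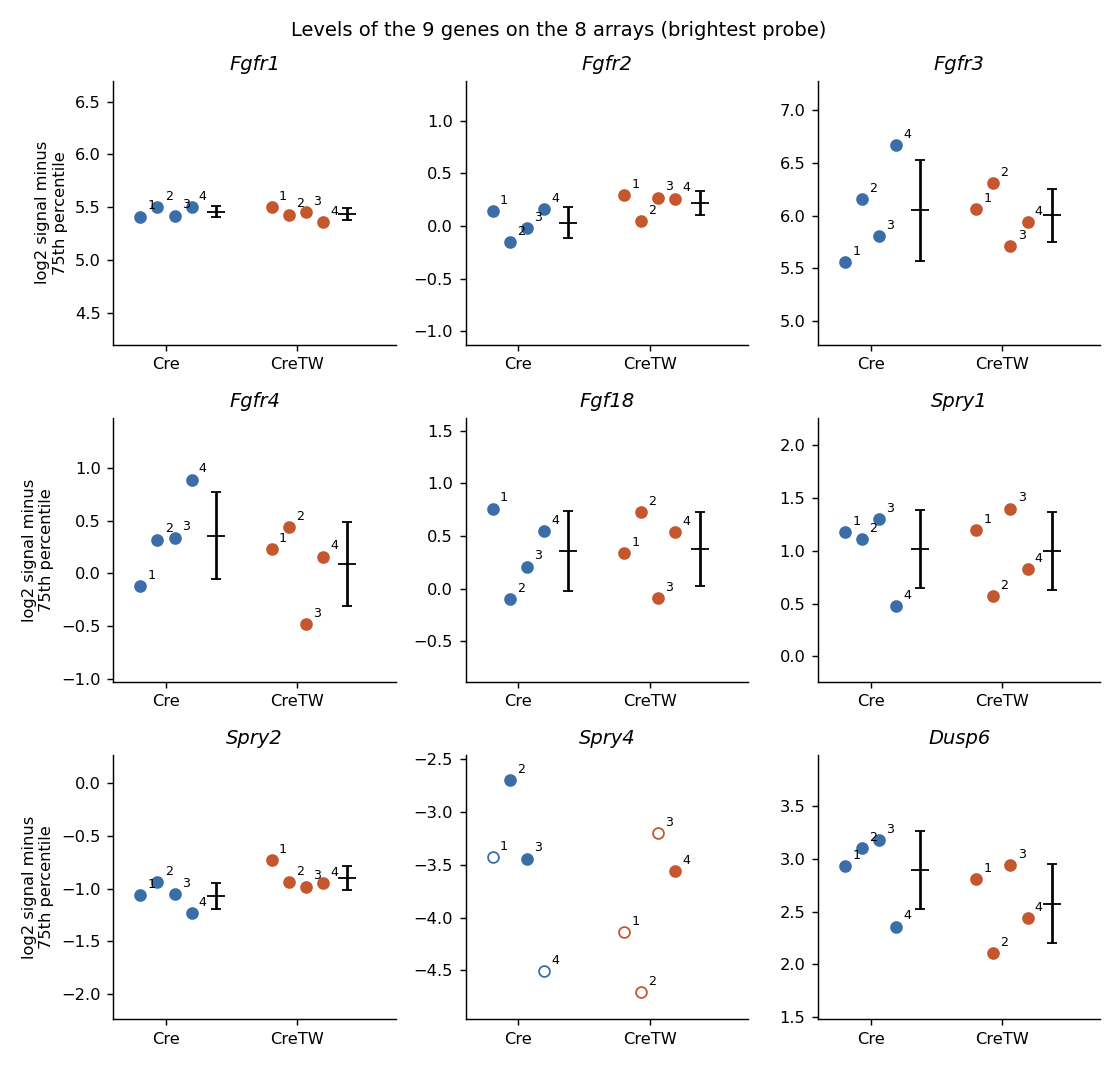
Level of each gene's brightest probe on the 8 arrays, as log2 processed signal minus the array's 75th percentile, with the replicate number beside each point, a line and bar for mean ± SD (n = 4; none for Spry4), and open points where the probe was not well above background. All panels span the same height in log2 units: Fgfr1 is nearly flat at 5.36 to 5.50, and Fgfr3 spreads from 5.56 to 6.67 with both genotypes mixed.

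Among the feedback inhibitors, Spry1, which blocks RAS activation below the receptor, gave 1.18, 1.11, 1.30 and 0.48 in Cre and 1.20, 0.57, 1.40 and 0.83 in CreTW mice. The low values were of Cre replicate 4 and CreTW replicate 2, so each genotype held low and high mice. The difference was -0.02 ± 0.23 (95% interval -0.54 to 0.50, adjusted p = 0.985 by limma).

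Dusp6, the ERK phosphatase, gave 2.93, 3.10, 3.18 and 2.36 in Cre and 2.81, 2.11, 2.94 and 2.44 in CreTW mice. Cre replicate 4 and CreTW replicate 2 were the lowest of their genotypes, as for Spry1. The difference was -0.32 ± 0.23 (95% interval -0.84 to 0.21, adjusted p = 0.646 by limma, exact permutation p = 0.257, two-sided), and a fold between 0.558 and 1.16 remains possible. It was -0.55 within slide row 1 and -0.08 within row 2.

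Spry2, another Sprouty, was well above background on all arrays by 1 of its 2 probes, which gave -1.06, -0.94, -1.05 and -1.23 in Cre and -0.73, -0.94, -0.98 and -0.95 in CreTW mice. The CreTW mice filled the upper part of the range and overlapped the Cre mice at about -0.94. The difference was 0.17 ± 0.10 (95% interval -0.05 to 0.39, adjusted p = 0.571 by limma, exact permutation p = 0.0857, two-sided), and it was 0.17 within either slide row. The other probe of Spry2 was well above background on 3 of 8 arrays and was not tested.

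Spry4 was at the edge of detection. Of the Cre arrays 2 and of the CreTW arrays 1 showed its only probe well above background, so it failed the filter of 4 of 8 arrays. The measured values were -2.70 on Cre replicate 2, -3.44 on Cre replicate 3 and -3.56 on CreTW replicate 4. Fitted without the filter, over 45616 features, its difference was -0.38 ± 0.45 (95% interval -1.41 to 0.65, adjusted p = 1 by limma), with most of the values not well above background.

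**Figure D2:**
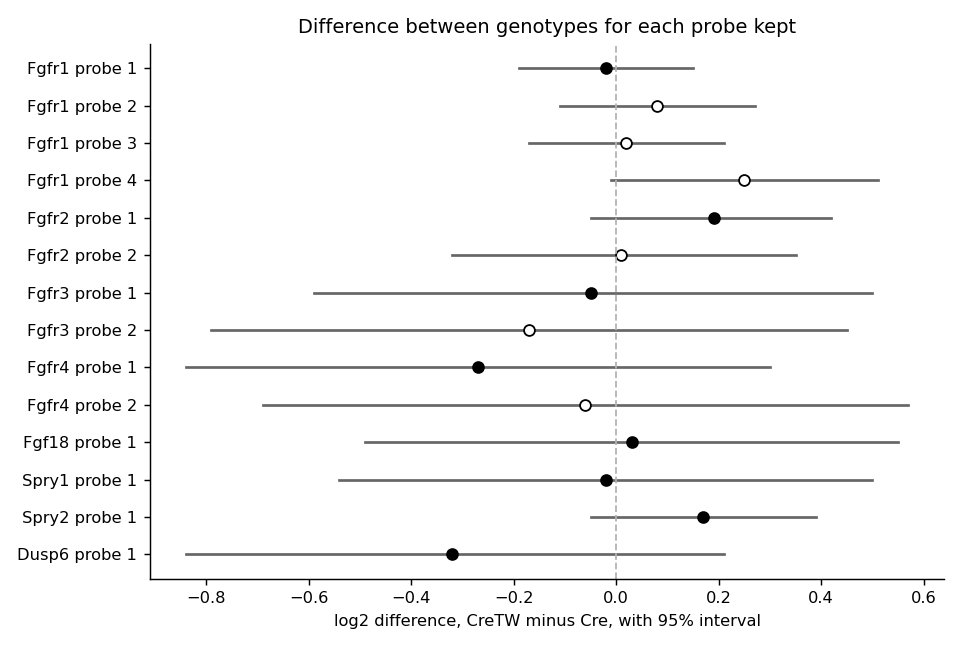
Log2 difference, CreTW minus Cre, of each of the 14 probes kept, with the 95% interval from limma fitted over 29398 probes; filled points are the brightest probe of a gene. Every interval includes 0, and those of Fgfr1, at -0.19 to 0.15 for its brightest probe, are narrower than those of Fgfr3, at -0.59 to 0.50.

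The spread among mice differed between the genes. The residual SD within a genotype was 0.385 for Fgfr3, 0.406 for Fgfr4, 0.366 for Fgf18, 0.369 for Spry1 and 0.371 for Dusp6, larger than that of 83.0% to 86.5% of all features. It was 0.130 for Fgfr2 and 0.117 for Spry2, below the median of 0.190. The levels of the 8 genes were compared in all 28 pairs across the 8 arrays, a step added after the values were seen. Spry1 and Dusp6 had the highest correlation (r = 0.89, exact permutation p = 0.006, adjusted over the 28 pairs 0.101; Spearman's rho = 0.76, adjusted exact p = 0.343). Taken as deviations from the genotype mean, their r was 0.98. Fgfr3 and Fgfr4 followed (r = 0.87, exact permutation p = 0.00722, adjusted 0.101; rho = 0.83, adjusted exact p = 0.343), with 0.90 for the deviations. Fgfr3 and Spry1 ran in opposite directions (r = -0.81, exact permutation p = 0.0127, adjusted 0.119; rho = -0.76, adjusted exact p = 0.343). Fgf18 and Fgfr3 had a low r over the 8 arrays (r = 0.16, exact permutation p = 0.699, adjusted 0.851; rho = 0.05, adjusted exact p = 0.935). For this pair r was -0.17 among the Cre and 0.89 among the CreTW mice, with no test within a genotype. After adjustment 0 of 28 pairs passed by either measure. Without the 2 arrays farthest from the median of the first gene, r was 0.74 for Spry1 and Dusp6, 0.73 for Fgfr3 and Fgfr4, -0.76 for Fgfr3 and Spry1 and 0.50 for Fgfr3 and Fgf18.

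The levels were also set against marker scores, each the mean centred log2 value of a list of cell type markers that holds none of the 9 genes, in 64 relations of 8 genes and 8 lists. Fgfr3 followed the chondrocyte score, which was lowest on CreTW replicate 3 (-0.46) and Cre replicate 1 (-0.33) and highest on Cre replicate 4 (0.61). Its r was 0.96 (exact permutation p = 0.000298, adjusted over the 64 relations 0.019) and its rho 0.95 (exact p = 0.00114, adjusted 0.0714). Fgfr4 had r = 0.94 with the same score (exact permutation p = 0.000769, adjusted 0.0217) and rho = 0.81 (exact p = 0.0218, adjusted 0.199). Without the 2 arrays farthest from the median score, r was 0.97 for Fgfr3 and 0.81 for Fgfr4. Fgfr3 also had r = -0.78 with endothelial, -0.71 with erythroid and marrow, -0.66 with osteoblast and -0.65 with osteoclast markers. Fgfr4 had r = -0.75 with endothelial and -0.66 with osteoblast markers. None of these passed after adjustment (adjusted exact permutation p = 0.15 to 0.247). The variation of both genes was thus not particular to the chondrocyte list.

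Spry1 and Dusp6 followed the endothelial score, lowest on CreTW replicate 2 (-0.40) and Cre replicate 4 (-0.39) and highest on CreTW replicate 3 (0.41). For Spry1 r was 0.93 (exact permutation p = 0.00102, adjusted 0.0217) and rho 0.88 (exact p = 0.00724, adjusted 0.154). For Dusp6 r was 0.90 (exact permutation p = 0.00263, adjusted 0.0421) and rho 0.93 (exact p = 0.00223, adjusted 0.0714). Without the 2 farthest arrays r was 0.80 and 0.76. Dusp6 also had r = 0.87 with osteoclast markers (exact permutation p = 0.00521, adjusted 0.0667; rho = 0.86, adjusted exact p = 0.171), and r = 0.84 with osteoblast markers (adjusted exact p = 0.126; rho = 0.83, adjusted exact p = 0.197). Spry1 had r = 0.78 with osteoblast, 0.76 with erythroid and marrow, 0.72 with osteoclast and -0.76 with chondrocyte markers (adjusted exact p = 0.15, 0.15, 0.207 and 0.15; rho = 0.60, 0.67, 0.50 and -0.79, adjusted exact p = 0.446, 0.446, 0.598 and 0.223). The variation of both genes was thus not particular to the endothelial list. In all, 4 of 64 relations passed after adjustment by r and 0 by rho. The relations had r between 0.89 and 0.97 under the array median, quantile normalization and normexp correction. All values of an array share its RNA and its scaling, and no r was taken within a slide row, which holds 4 arrays. Within the 4 Cre and the 4 CreTW arrays r was 1.0 and 0.94 for Fgfr3, and 0.94 and 0.97 for Fgfr4. For Spry1 it was 0.98 and 0.92 and for Dusp6 0.97 and 0.89, with no test within a genotype.

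**Figure D3:**
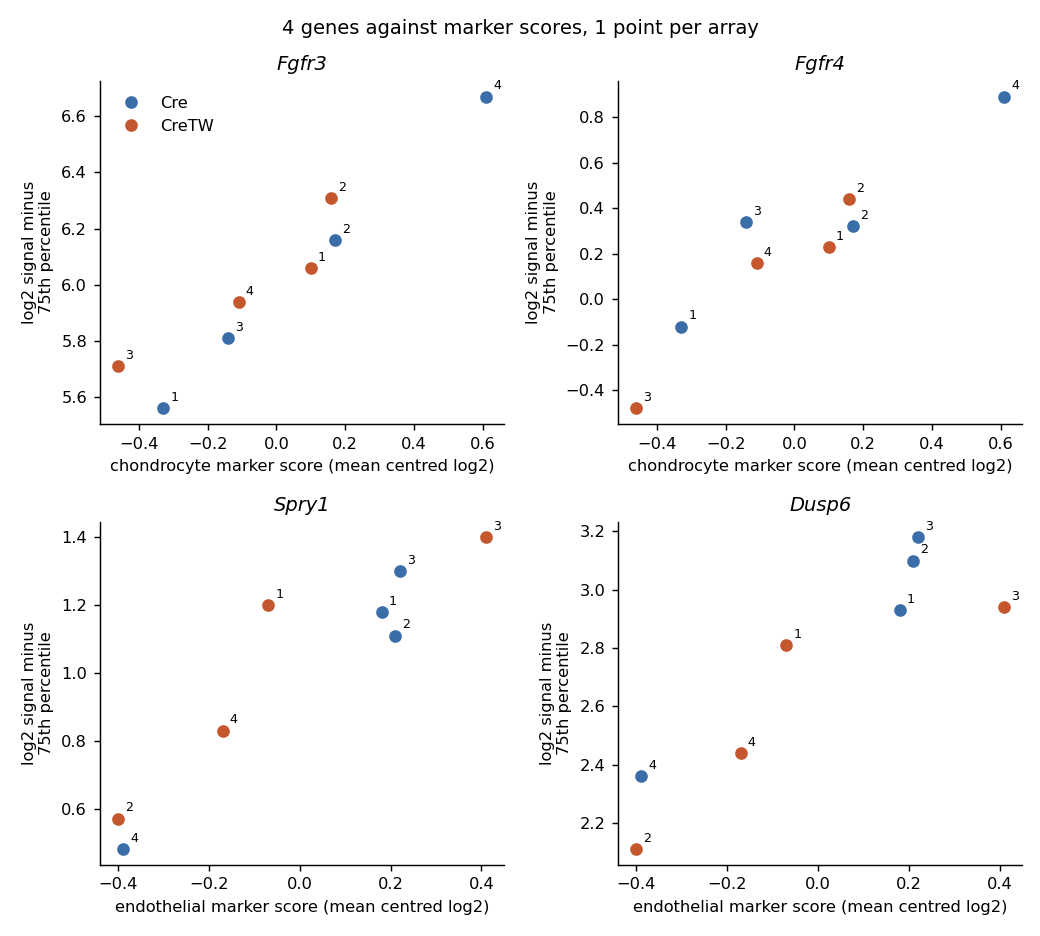
Levels of Fgfr3 and Fgfr4 against the chondrocyte score (top) and of Spry1 and Dusp6 against the endothelial score (bottom), 1 point per array with its replicate number, both axes in log2 units. Points of both genotypes lie along the same rising band in each panel, with r = 0.96, 0.94, 0.93 and 0.90 over 8 arrays.

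With these scores in the fit, covariates added after the data were seen, the differences of the genes that followed a score still did not pass. Their errors were smaller, which follows from choosing scores that these genes tracked on the same arrays and is not a separate result. With the chondrocyte score the SE of Fgfr3 went from 0.24 to 0.08, and its difference was 0.12 (95% interval -0.08 to 0.31, adjusted p = 0.505 by limma). That of Fgfr4 was -0.11 (95% interval -0.36 to 0.15, adjusted p = 0.654). With the endothelial score the difference of Dusp6 was -0.19 ± 0.11 (95% interval -0.45 to 0.07, adjusted p = 0.492) and that of Spry1 was 0.11 ± 0.10 (95% interval -0.12 to 0.34, adjusted p = 0.663). The chondrocyte score moved these the other way, to -0.43 ± 0.19 for Dusp6 (95% interval -0.86 to 0, unadjusted p = 0.0518, adjusted p = 0.286 by limma) and to -0.14 ± 0.16 for Spry1 (95% interval -0.52 to 0.23, adjusted p = 0.679). Fgfr4 with the endothelial score had the only interval clear of 0 among the 16 such fits (-0.41, 95% interval -0.71 to -0.10, adjusted p = 0.242). The part of the tissue makeup in any of these differences was not tested.

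The genes whose deviations from the genotype mean were most like those of Fgfr3 were Gaa, Hip1r and Slc2a1, each with r = 0.993 over the 8 arrays, and 419 of 14126 genes with a symbol had an r above 0.9 with it. For Fgf18 they were Olfr147 (r = 0.971), Nfib (0.971) and Lmx1b (0.963), with 47 genes above 0.9, and for Fgfr1 they were Pias2 (0.962), Galr3 (0.956) and Efnb2 (0.944), with 29 genes. More genes thus had an r above 0.9 with Fgfr3 than with Fgf18 or Fgfr1. The residual SDs of the 3 genes were 0.385, 0.366 and 0.054, and the part of this spread in the counts was not tested. The named genes are by construction the highest of 14126.

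In the wider pathway 0 of 78 tested genes passed, against 0.346% of all features, and 9 had an unadjusted limma p under 0.05 (10.7% of all features). The median difference over the 78 was 0.03 on the log2 scale. Of 21 other genes of the FGF family, not all of them receptor ligands, 8 were measured, 6 with positive and 2 with negative differences (median 0.27). Apart from Fgf23 and Fgf1 these were dim, with mean levels from -2.77 (Fgf8) to -1.71 (Fgf11). The brightest were Fgf23, the phosphate-regulating hormone, at 0.24 ± 0.12 (adjusted p = 0.503 by limma), and Fgf1 at -0.05 ± 0.26 (adjusted p = 0.962). The Fgf23 probe read 6.76 to 7.06 in Cre and 6.90 to 7.28 in CreTW mice, above every value of the brighter Fgfr3 probe. Whether it reads Fgf23 mRNA alone was not tested. Fgf9, a ligand of FGFR3 that was named after its value was seen, had the largest difference of the lists, 0.96 ± 0.32 (unadjusted p = 0.0165 by limma, adjusted p = 0.346). It gave -3.26, -3.65, -3.15 and -2.39 in Cre and -2.96, -1.79, -1.87 and -1.98 in CreTW mice. The groups overlapped, since CreTW replicate 1 lay under Cre replicate 4, and 2 of 4 Cre against 4 of 4 CreTW arrays had the probe well above background. The 3 CreTW arrays with the highest Fgf9 were also those with the highest skeletal muscle score (1.85 to 3.31, against -2.98 to 0.28 on Cre arrays). The part of muscle in this value was not tested.

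Of the co-receptors and ligand binders, mostly heparan sulfate proteoglycans that hold FGF near its receptor, 13 were measured and 0 passed (9 positive, 3 negative and 1 at 0.00, median 0.08). The brightest, Gpc1 and Hspg2, were at 0.05 ± 0.10 and -0.08 ± 0.17. Sdc2, a syndecan, and Gpc4, a glypican, were both named after their values were seen. Sdc2 gave 3.40, 3.25, 3.23 and 3.11 in Cre and 3.72, 3.53, 3.91 and 3.50 in CreTW mice, with no overlap (difference 0.42 ± 0.12, unadjusted p = 0.00616, adjusted p = 0.259 by limma). Gpc4 gave 2.06, 1.70, 1.68 and 2.06 in Cre and 2.21, 2.25, 2.31 and 2.25 in CreTW mice, again with no overlap (difference 0.38 ± 0.11, unadjusted p = 0.00848, adjusted p = 0.277 by limma). Sdc3, another syndecan named afterwards, went the other way and overlapped. Its difference was -0.30 ± 0.12 (95% interval -0.58 to -0.02, unadjusted p = 0.0379, adjusted p = 0.439 by limma). These 3 were the genes of this list with an unadjusted limma p under 0.05. In all 8 of the 78 genes had genotypes that did not overlap, against 6.70% of all features.

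Of 26 signal transducers between receptor and ERK 26 were measured and 0 passed (14 positive, 11 negative, 1 at 0.00, median 0.02). The brightest were Ptpn11, the phosphatase SHP2 that relays the receptor's signal to RAS, at 0.07 ± 0.07, and the kinase gene Araf at 0.02 ± 0.16. Differences in this list ran from -0.32 to 0.25. Rps6ka1, the ERK-activated kinase RSK1, and Frs3, an adaptor of the receptor, were named after their values were seen and lay lower in CreTW mice with no overlap. Rps6ka1 gave 2.23 to 2.45 in Cre and 1.97 to 2.20 in CreTW mice (difference -0.31 ± 0.09, unadjusted p = 0.00851, adjusted p = 0.277 by limma). Frs3 was at -0.32 ± 0.12 (unadjusted p = 0.0284, adjusted p = 0.405 by limma). The kinase gene Braf, also named afterwards, did not overlap either but lay higher in CreTW mice. Braf gave 1.18 to 1.42 in Cre and 1.43 to 1.56 in CreTW mice (difference 0.17 ± 0.08, unadjusted p = 0.0696, adjusted p = 0.508 by limma). Of 13 measured feedback inhibitors other than those above 0 passed (6 positive, 7 negative, median -0.03), with the phosphatases Dusp7 at 0.09 ± 0.13 and Dusp1 at 0.08 ± 0.35. Chosen after their values were seen, Dusp9, another ERK phosphatase, was at -0.60 ± 0.28 with no overlap (unadjusted p = 0.0637, adjusted p = 0.496 by limma), well above background on 3 Cre and 2 CreTW arrays. Cblb, a ubiquitin ligase, was at -0.52 ± 0.20 (unadjusted p = 0.0282, adjusted p = 0.403 by limma). Nf1, a brake on RAS, was at 0.24 ± 0.10, also with no overlap (unadjusted p = 0.0403, adjusted p = 0.443 by limma). Of 18 measured transcriptional targets 0 passed (8 positive, 10 negative, median -0.05). The brightest of these were Cdkn1a, the cell cycle inhibitor p21, at 0.10 ± 0.14 and Snai2 at 0.11 ± 0.10. Among the targets of ERK that were named after their values were seen, the transcription factors Etv4 and Etv5 were at 0.17 ± 0.15 and -0.02 ± 0.14 (adjusted p = 0.699 and 0.971 by limma). The immediate early genes Fos and Ier2, also named afterwards, were at -0.66 ± 0.58 and -0.34 ± 0.27 (adjusted p = 0.7 and 0.678 by limma). The value of Fos, the lowest of the 78, came with levels from 1.5 to 2.84 in Cre and 0.75 to 3.43 in CreTW mice, so the CreTW range held all Cre values.

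**Figure D4:**
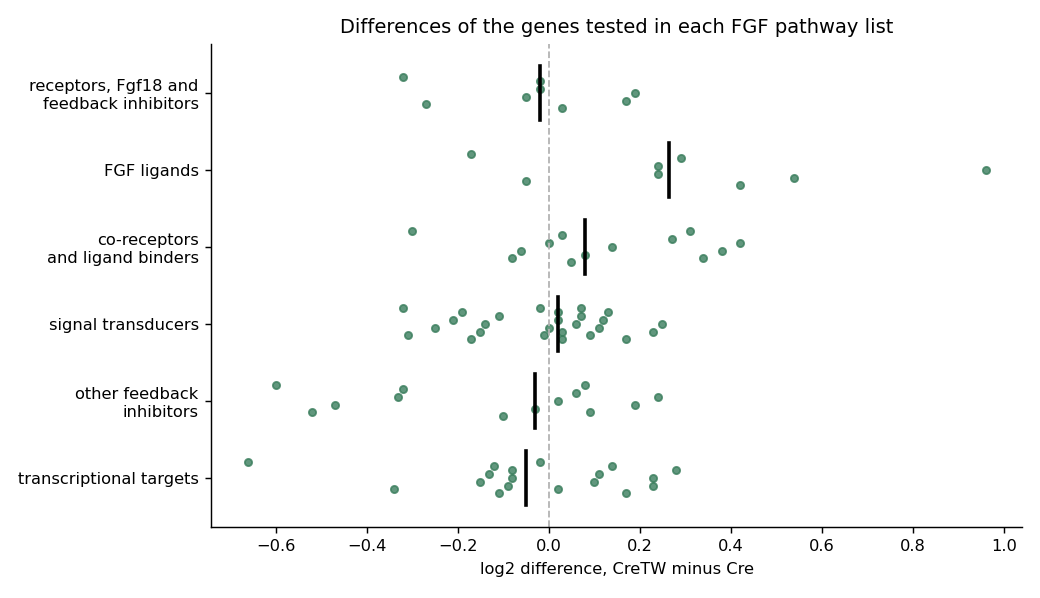
Log2 difference, CreTW minus Cre, of every gene tested in each list, 1 point per gene with a black bar at the list's median. The 8 genes described above lie between -0.32 and 0.19, the medians of the other lists lie between -0.05 and 0.27, and Fgf9 is the point at 0.96.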

How the data were processed

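The deposited intensity is Agilent Feature Extraction's processed signal (version 11.5.1.1, probe annotation on mm9, per the file headers), from which background is already subtracted. The deposited log2 value table (GeneSpring 14.9, per the submitters' notes) followed log2 of this signal with r = 1 on each array, offset from its 75th percentile by -0.0056 to -0.0030, with medians of -3.03 to -2.93, so its scale, centring and direction are known. Spots of a probe were averaged without outlier spots, put on the log2 scale and reduced by the array's 75th percentile. Probes well above background on 4 of 8 arrays were kept, and a gene's brightest was used. RefSeq (GRCm38.p6, for names and promoters) named 32994 of 56605 probes, none with several symbols. Genotypes were compared with limma 3.58.1 (R 4.3.3), tested on simulated data first. The number of arrays limits the precision. Alternatives were other scalings, normexp, filters, probe rules, blocks and single arrays left out. The 9 genes are named, with each list's changed genes or, failing those, its 2 brightest. The members and lists were chosen with earlier results of these data known.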

Additional observations from a re-analysis of the deposited data

Results flagged for a closer look

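Dixon's test at the 95% level, which by its construction picks about 1 in 20 groups by chance, was applied to 28 combinations of probe and genotype of 4 arrays each, and in 3 of them a value lay far from the others of its group. For the dimmest Fgfr1 probe it was Cre replicate 2 at -1.20, with the other Cre arrays at -0.72 to -0.80. For the brighter Fgfr2 probe it was CreTW replicate 2 at 0.05, with the others at 0.26 to 0.29, and for Spry2 it was CreTW replicate 1 at -0.73, with the others at -0.94 to -0.98.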

How the results depend on the processing

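Of 20 alternatives none brought any of the 8 tested genes, or any of the wider pathway genes, past the threshold. The differences of Fgfr2, Spry2 and Dusp6 kept their sign in all alternatives (0.100 to 0.242, 0.050 to 0.212 and -0.550 to -0.084). Those near 0 did not. With normexp Fgfr1 was at 0.020 and Fgf18 at -0.023, with the mean of its probes Fgfr1 was at 0.082, with the chondrocyte score Fgfr3 was at 0.118, and with the endothelial score Fgf18 was at -0.066 and Spry1 at 0.110. Within slide row 1 Fgfr1, Fgfr3 and Fgfr4 were at 0.013, 0.325 and 0.234 and the untested Spry4 at -1.361; within row 2 Fgf18 and Spry1 were at -0.155 and 0.223 and Spry4 at 0.600. The causes were not tested. Without single arrays Fgfr1 ran from -0.042 to 0.006, Fgfr3 ran from -0.210 to 0.162, Fgfr4 from -0.430 (without Cre replicate 1) to -0.082 (without CreTW replicate 3; -0.094 without Cre replicate 4), Fgf18 ran from -0.125 to 0.184 and Spry1 ran from -0.196 to 0.125. The sign turned for Fgfr1 without CreTW replicate 4 (0.006), for Fgf18 without Cre replicates 2 and 3 (-0.125 and -0.021) and CreTW replicates 2 and 4 (-0.089 and -0.026), and for Spry1 without Cre replicates 1, 2 and 3 (0.036, 0.013 and 0.076) and CreTW replicates 2 and 4 (0.125 and 0.040). The count of all features changed was 80, and 27 when no dim probe was filtered out, 12 with the replicate block, 53 with the slide row as a block, 138 with the chondrocyte score and 42 to 75 without single arrays (51 without Cre replicate 2, 50 without Cre replicate 3 and 42 without CreTW replicate 4). Arrays with the same replicate number had correlations of deviations between -0.10 and 0.31, and 1 of 4 Cre arrays matched its own number best, so the numbers were not taken as pairs. The scalings moved the median of all features by at most 0.011 on the log2 scale. The score covariates were chosen after seeing the data. Normexp used the median signal. Signal over background limits Spry4 and the dimmer Spry2 probe, and 4 arrays per genotype limit the rest.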
